A study of Mus musculus with 20 samples.

Results

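SR splicing factors are nuclear proteins that bind exonic RNA and help the spliceosome to recognise splice sites. The group described here comprises 10 genes of this family in mouse heart: Srsf1, Srsf2, Srsf3, Srsf4, Srsf5, Srsf6, Srsf7, Srsf11, Tra2a and Tra2b. They are 10 of the 29339 genes in the deposited table of read counts and FPKM (reads scaled to exon length and library total). The genes were chosen by their measured levels in these same libraries, after their genotype differences, their differences between library series and their co-variation were known. Values of the members on those 3 points are therefore a description: their calls in the fits over all genes stand beside the share of all genes called, and nothing is read from them.

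Heart RNA came from C57BL/6 mice aged 8 weeks, either wild type (WT) or TECRL-/- (KO, knockout of trans-2,3-enoyl-CoA reductase like). There were 5 libraries labelled male WT (WT1, WT2, S7, S8, S9), 5 labelled male KO (S10, S11, S12, TKO5, TKO6), 3 labelled female WT (S1, S2, S3) and 7 labelled female KO (S4, S5, S6, TKO1, TKO2, TKO3, TKO4). The names form 2 library series, S with 12 libraries and WT/TKO with 8, and no library labelled female WT belongs to the WT/TKO series. No other treatment is named in the labels. The study's methods describe hearts collected mouse by mouse but name fewer mice than there are libraries here, and the labels do not tie a library to a mouse, so p-values measure the spread between these libraries, which may be partly technical.

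Total counts ran from 12540002 to 20038593 per library, and all 44 pairs of libraries within a group differed beyond counting noise. Cardiomyocyte markers were high in every library (Myh6, the alpha myosin heavy chain, 1530 to 3158 FPKM). The labels were not borne out for the targeted gene: Tecrl had 24.5 to 46.5 FPKM over all libraries, with no lower level in those labelled KO, and whether the counted exons include the altered part is not given in the sources used here. In 6 libraries the sex-linked genes went against the labelled sex: S4, S5 and S6 (labelled female KO) had Y-linked transcripts and S7, S8 and S9 (labelled male WT) had Xist. Within the S series, genotype label and sex-linked expression therefore cannot be told apart. Libraries S7, S9, S10, S11 and S12 had raised atrial transcripts (over 100 CPM, counts scaled to the library total, per atrial marker on average). In bulk heart RNA, fewer cells of a type and less RNA per cell cannot be told apart either.

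An SR protein joins one or more RNA recognition motifs to a region rich in alternating arginine and serine, the RS domain. Serines of this domain are phosphorylated in the cytoplasm by SRPK kinases, which permits nuclear import, and in the nucleus by CLK kinases, which releases the proteins from speckles. Srsf1, Srsf3 and Srsf7 also act in mRNA export, Srsf2 stays in the nucleus and supports release of paused RNA polymerase, Tra2a and Tra2b bind purine-rich exon enhancers, and Srsf11 is a more distant relative with an RS domain. Many SR genes limit their own protein by splicing in a poison exon or keeping an intron, which sends the transcript to nonsense-mediated decay (NMD). In heart, Srsf1 is known for the postnatal splicing of Camk2d, and loss of Srsf1, Srsf2 or Srsf3 in cardiomyocytes impairs contraction.

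The RS domain is written into the coding sequence as runs of arginine and serine codons. The stretches below are the 72 coding bases with the most arginine-serine neighbours in 6 members, shown because they are what places these genes in 1 family and because they cover the most abundant member (Srsf5), the member with the smallest spread (Srsf1), the members on which the comparisons turn (Srsf3, Srsf11), Srsf2 and a Tra2 gene. They were read from GENCODE M21 transcripts on GRCm38, each inside 1 exon, on the coding strand, and capitals mark arginine and serine codons that stand next to each other. Srsf1 lies at chr11:88049463-88049534 (plus strand, codons 202 to 225), Srsf2 at chr11:116852244-116852315 (minus strand, codons 127 to 150), Srsf5 at chr12:80949721-80949792 (plus strand, codons 185 to 208), Srsf3 at chr17:29041220-29041291 (plus strand, codons 132 to 155), Srsf11 at chr3:158016381-158016452 (minus strand, codons 296 to 319) and Tra2b at chr16:22254486-22254557 (minus strand, codons 62 to 85).
Srsf1: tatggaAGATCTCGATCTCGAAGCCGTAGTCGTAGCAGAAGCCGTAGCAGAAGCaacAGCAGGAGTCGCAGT
Srsf2: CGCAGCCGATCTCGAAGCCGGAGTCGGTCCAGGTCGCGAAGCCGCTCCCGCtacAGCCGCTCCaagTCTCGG
Srsf5: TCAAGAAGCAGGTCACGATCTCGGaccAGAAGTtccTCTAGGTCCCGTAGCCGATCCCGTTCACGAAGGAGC
Srsf3: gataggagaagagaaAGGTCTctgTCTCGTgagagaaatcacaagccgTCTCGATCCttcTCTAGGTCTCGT
Srsf11: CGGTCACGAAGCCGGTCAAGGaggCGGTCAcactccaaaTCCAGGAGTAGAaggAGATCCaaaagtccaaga
Tra2b: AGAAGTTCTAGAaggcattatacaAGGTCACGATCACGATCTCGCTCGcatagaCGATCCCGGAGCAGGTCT

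Srsf1 and Srsf2 each held 19 arginine-serine neighbour pairs in these 72 bases, Srsf5 held 18, Tra2b 14, Srsf11 11 and Srsf3 7. Over the whole coding sequence the number of such pairs ran from 25 in Srsf3 (164 codons) to 106 in Srsf4 (491 codons). Srsf6 had 74, Srsf7 55, Srsf2 52, Tra2b 50, Srsf5 48, Srsf11 41, Tra2a 40 and Srsf1 31.

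The annotation also lists the isoforms by which SR genes are known to control themselves. Of the 84 annotated transcripts of the members, 18 are marked as NMD targets and 31 as transcripts with a retained intron. Each of the 10 members had at least 1 transcript of both kinds, against 14.9% of 21951 protein-coding genes (20.8% have an NMD transcript and 41.5% one with a retained intron). Srsf11 had the most, with 3 NMD and 11 retained-intron transcripts among 19. The values are counts per gene, so productive and unproductive transcripts of a member are summed and cannot be told apart here.

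On the genome, the members lie on chromosomes 2 (Srsf6), 3 (Srsf11), 4 (Srsf4), 6 (Tra2a), 11 (Srsf1 and Srsf2), 12 (Srsf5), 16 (Tra2b) and 17 (Srsf3 and Srsf7). Exons of Srsf1, Srsf2 and Srsf4 overlap genes on the opposite strand (Gm11508, Mettl23 with Mfsd11, and Gm12992), and Tra2b has a pseudogene copy, Tra2b-ps. Whether the counting used strand is not given in the sources used here, so the counts of Srsf1, Srsf2 and Srsf4 may be affected by the overlapping genes. How reads that match both Tra2b and its pseudogene copy were counted is not given either.

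The upstream promoter sequences differed among members. In the 250 bases before the RefSeq start (GRCm38.p6, both strands searched), the GC box GGGCGG was present in 9 of 10 members, all but Srsf3, against 35.4% of 27025 genes. The TATA box letters TATAAA were present in Srsf2 and Srsf3 (14.3% of genes) and the CCAAT box in Srsf2, Srsf3 and Tra2a (37.5%). The ETS letters CCGGAAG were present in Srsf4, Srsf5, Srsf7 and Srsf11 (7.83%), partly overlapping a GC box in Srsf5, and the cyclic AMP response element TGACGTCA only in Tra2a among the members (1.77%). The E box CACGTG was found in none of the 10 (6.86%) and the palindrome TCTCGCGA in Srsf4 (0.977%). The 120 bases before the start of Srsf2 (chr11:116853095-116853214, minus strand) are shown because they hold 3 of these letter groups, which are in capitals in the order CCAAT box, TATA box and GC box, starting 82, 29 and 10 bases before the start.
Srsf2 upstream: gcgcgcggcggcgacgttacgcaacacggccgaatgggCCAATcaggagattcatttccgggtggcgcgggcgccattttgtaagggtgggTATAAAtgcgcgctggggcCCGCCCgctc

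All 10 members were measured in every library, with 111 to 6056 counts each, and all passed the filter on low counts (at least 10 counts in at least 3 libraries). FPKM divides by exon length, so levels can be compared between genes. Srsf5 was the most abundant at 80.7 ± 13.2 FPKM (SD, n = 20 libraries), followed by Srsf6 at 28.9 ± 6.22 and Srsf2 at 23.2 ± 4.15. Srsf1 (17.7 ± 2.60), Srsf7 (17.0 ± 3.81), Srsf3 (15.1 ± 3.10) and Srsf11 (12.5 ± 4.13) formed the middle. Tra2a (9.16 ± 2.27), Tra2b (6.37 ± 1.17) and Srsf4 (3.08 ± 0.653) were the lowest.

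Srsf5 exceeded Srsf6 in all 20 libraries, Srsf2 exceeded Srsf1 in all 20 and Tra2b exceeded Srsf4 in all 20. Neighbours in the middle of the order changed places: Srsf1 was above Srsf7 in 13 of 20 libraries, Srsf3 above Srsf11 in 15 and Srsf7 above Srsf3 in 16, so the order among these 4 was not fixed beyond their spread. Srsf5 alone made up 37.8 ± 4.22% of the summed FPKM of the members (n = 20), and the sum ran from 162.7 to 286.2 FPKM. The sum was 231.7 ± 32.5 FPKM in the 8 WT libraries and 201.6 ± 20.05 in the 12 KO libraries. These pooled means mix series that are unevenly split by genotype label. In the S series the sum ran from 211.6 to 286.2 FPKM in WT and from 162.7 to 222.4 in KO. In the WT/TKO series it was 188.9 and 218.8 FPKM in WT1 and WT2, within the 173.6 to 223.1 of the KO libraries.

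Among the remaining classical family members, Srsf10, a splicing repressor when dephosphorylated, and Srsf9 lay between Srsf11 and Tra2a by mean level, at 9.82 ± 1.62 and 11.01 ± 2.40 FPKM (SD, n = 20). Srsf9 had 11.2 ± 3.38 FPKM in the libraries labelled male WT (n = 5), 12.03 ± 2.79 in male KO (n = 5), 11.4 ± 0.789 in female WT (n = 3) and 9.95 ± 1.71 in female KO (n = 7). Srsf10 had 9.95 ± 1.21, 9.81 ± 0.669, 12.2 ± 2.65 and 8.72 ± 0.727 FPKM in the same order. Srsf12 had at most 3 counts in any library, the level taken here as the floor, and was not tested.

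The spread over libraries was modest for 9 of the 10 members. The coefficient of variation of FPKM ran from 14.8% in Srsf1 to 24.7% in Tra2a, with Srsf11 above them at 32.9%. The median over members was 20.8%, beside 25.8% over the 15187 genes tested. The plot of levels by labelled group shows which libraries made the spread.

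**Figure D1:**
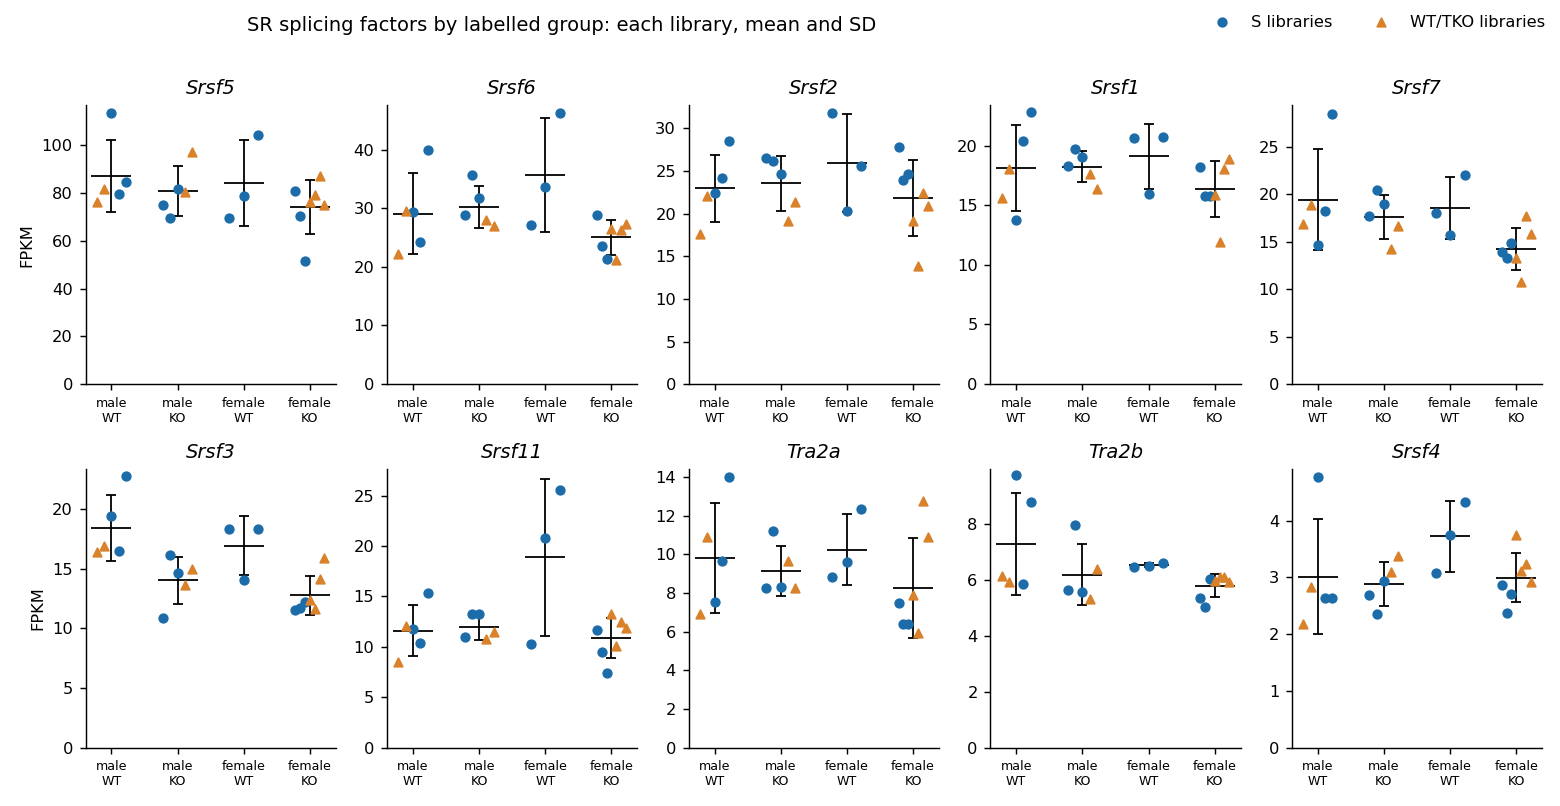
FPKM of each SR splicing factor (vertical axis, from 0, different in each panel) in the 4 labelled groups, with 1 point per library (circles S series, triangles WT/TKO series) and the mean and SD as a horizontal mark and bar. The 3 female WT libraries of Srsf11 spread from 10.3 to 25.5 FPKM, while Srsf3 sat higher in the WT groups than in the KO groups.

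Srsf3, the smallest SR protein, was fitted lower in KO in both labelled sexes, on the contrast known when the genes were chosen. Its levels were 16.4, 16.9, 19.5, 16.5 and 22.8 FPKM in the male WT libraries WT1, WT2, S7, S8 and S9. In the male KO libraries S10, S11, S12, TKO5 and TKO6 they were 10.9, 16.1, 14.6, 13.6 and 14.9 FPKM. Every library labelled male KO was below every library labelled male WT.

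The female WT libraries S1, S2 and S3 had 18.4, 14.1 and 18.4 FPKM of Srsf3. The 7 female KO libraries had a lowest value of 11.6, a median of 12.2 and a highest of 15.9 FPKM. The 3 female KO libraries of the S series (11.6, 11.7 and 12.2) lay below all 3 female WT libraries, while TKO3 (14.1) and TKO4 (15.9) reached into the WT range.

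On the log2 CPM scale, with library series in the fit of edgeR's quasi-likelihood method, Srsf3 differed between KO and WT by -0.39 (standard error 0.12) in the male fit and -0.54 (0.131) in the female fit. Over all 20 libraries the difference was -0.43 (0.0814), or 0.741 times the WT level. Within the S series on the log2 CPM scale, all 6 KO libraries lay below all 6 WT libraries for Srsf3 alone among the members, where 0.138% of all 15187 genes had this order. The margin was narrow (121.6 CPM in S11 and 122.3 in S2), and in FPKM S11 and S12 lay above S2, so the groups overlapped. In the labelled male libraries, Srsf3 was also the single member without overlap, beside 0.23% of all genes with KO below. These values belong to the contrast by which the genes were chosen, and nothing is read from them. Y-linked transcripts moved with the genotype label in the S series, and their part in the Srsf3 difference was not tested.

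Srsf11 stood apart by its spread rather than by a steady difference. The female WT libraries S1, S2 and S3 had 10.3, 20.8 and 25.5 FPKM. The female KO libraries had a lowest value of 7.38 (S6), a median of 11.7 and a highest of 13.3 FPKM (TKO1). S2 and S3 lay above every other library of the study, whereas S1 lay within the range of the KO libraries.

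Levels of Srsf11 were 8.53, 12.1, 11.8, 10.4 and 15.3 FPKM in WT1, WT2, S7, S8 and S9. The male KO libraries S10, S11, S12, TKO5 and TKO6 had 10.96, 13.3, 13.3, 10.8 and 11.4 FPKM. The 2 male groups overlapped throughout. The fitted difference of KO against WT was 0.054 (standard error 0.112) in the male fit and -1.03 (0.272) in the female fit, which is 0.491 times the WT level. The female value was -0.80 without S3 and -1.34 without S1.

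Tra2a, a regulator of purine-rich exon enhancers, had 8.82, 9.59 and 12.3 FPKM in S1, S2 and S3. The 7 female KO libraries ran from 5.94 (TKO2) over a median of 7.51 to 12.8 FPKM (TKO3). The 3 S-series KO libraries (7.51, 6.38 and 6.38) were below all 3 WT libraries, but TKO3 and TKO4 were not. The fitted difference was -0.63 (standard error 0.217) with library series in the female fit and -0.33 without it. In the male fit it was -0.09 (0.173), with 6.94, 10.9, 7.55, 9.64 and 14.0 FPKM in the WT libraries and 8.28, 11.2, 8.32, 9.65 and 8.24 in the KO libraries.

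Srsf6, which carries a pair of RNA recognition motifs, had 27.2, 33.5 and 46.3 FPKM in S1, S2 and S3. Its female KO libraries ran from 21.2 over a median of 26.3 to 28.9 FPKM, and only the WT library S1 fell within that range. The fitted difference was -0.57 (standard error 0.181) in the female fit and 0.068 (0.123) in the male fit.

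Srsf5, the most abundant member, had 69.6, 78.9 and 104.4 FPKM in the female WT libraries S1, S2 and S3, and its female KO libraries ran from 51.4 (S6) over a median of 76.3 to 87.2 FPKM. The male WT libraries had 76.4, 81.7, 113.7, 79.5 and 84.6 FPKM, where the high value was S7, and the male KO libraries 74.8, 69.5, 81.6, 80.6 and 97.4. The groups overlapped in both sexes. The fitted difference of KO against WT was -0.35 (standard error 0.177) in the female fit and -0.10 (0.133) in the male fit. The male value turned to 0.16 without the libraries with raised atrial transcripts and to 0.15 without those against their labelled sex. In both fits the male libraries left in the S series were all WT or all KO. With series in the fit, both values therefore came from the male WT/TKO libraries alone (2 WT, 2 KO). They are not separate checks on atrial content and sex-linked expression.

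Srsf4 was the least abundant member. WT1 and WT2 had 2.18 and 2.83 FPKM, below TKO5 and TKO6 with 3.09 and 3.37, an order that 14.2% of all genes had in these 4 libraries. In the S series the male WT libraries S7, S8 and S9 had 4.78, 2.64 and 2.64 FPKM and the KO libraries S10, S11 and S12 had 2.69, 2.36 and 2.94, so the groups overlapped there. The female WT libraries had 3.08, 3.75 and 4.34 FPKM and the female KO libraries 2.38 to 3.75, with a fitted difference of -0.52 (standard error 0.18).

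Srsf7, a zinc-knuckle member, had a female difference of -0.43 (standard error 0.159) and a male difference of -0.14 (0.16). Its level was 18.5 ± 3.21 FPKM in female WT (n = 3) and 14.2 ± 2.18 in female KO (n = 7), and S9 was the highest library at 28.5. Srsf1, the founding member ASF/SF2, had 19.1 ± 2.72 and 16.3 ± 2.35 FPKM in the same groups, with differences of -0.23 (0.149) in female and 0.006 (0.141) in male libraries. Tra2b had the narrowest group of all members, 6.46, 6.52 and 6.59 FPKM in S1, S2 and S3, and 5.05 to 6.11 in female KO, with a female difference of -0.28 (0.123) and a male one of -0.21 (0.148). Srsf2 had the smallest difference in the female fit, -0.045 (0.165), and 0.043 (0.108) in the male fit.

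As a group, all 10 members had a female difference below 0, with a median log2 value of -0.47, beside 52.4% of all 14511 genes tested below 0 and a median of -0.021. Past the study's thresholds (p below 0.05 before adjustment, with a log2 difference of 0.58 or more in either direction) were 2 members, Srsf11 and Tra2a, where 7.15% of all genes tested were called lower. At a Benjamini-Hochberg adjusted p under 0.05 in edgeR, 0 members were called, as were 8 genes in all (0.0551%, 2597 at an unadjusted p under 0.05). DESeq2 called 2 members and 383 genes at its adjusted p, and limma on log2(FPKM + 1) 0 members and 8 genes. Because every female WT library is of the S series, this fit rests on S1, S2 and S3 against S4, S5 and S6. Within those 6 libraries, 6 members (Srsf1, Srsf3, Srsf4, Srsf7, Tra2a and Tra2b) had every KO library below every WT library in CPM, beside 8.14% of all genes. In FPKM Srsf1 overlapped, with S4 (18.2) above S2 (15.9). The count of members past the study's thresholds was 4 without S1 (Srsf4, Srsf6, Srsf11 and Tra2a) and 1 without S3 (Srsf11), and without S1 5 members and 2409 genes passed the adjusted threshold.

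Other markers moved with the same female comparison. Atrial markers were higher in KO in 4 of 4 tested (3 called), with a summed level of at most 43.3 FPKM in S1, S2 and S3, 12.8 to 327.6 in S4, S5 and S6 and 9.31 to 16.3 in TKO1 to TKO4. Adipocyte markers were called higher in 2 of 2 tested (0.745 to 3.35 FPKM summed over 5 genes in the WT libraries, 4.65 to 13.5 in S4, S5 and S6 and 0.686 to 1.67 in TKO1 to TKO4), with 1 of the 5 at 0 in each of these groups. Heat shock genes were called higher in 2 of 8, immediate early genes in 1 of 8 and macrophage markers in 1 of 5, and all 4 Y-linked genes were called higher, also at the adjusted threshold. Nuclear-retained RNAs were below 0 in 3 of 4 (median -0.55), with Malat1 called lower. Mesothelial markers were below 0 in 5 of 5 (median -0.77, 0 called). The part of these markers in the members' differences was not tested.

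In the male libraries 6 of 10 members were below 0, with a median of -0.063, beside 52.9% of 14481 genes and a median of -0.015. The study's thresholds were passed by 0 members, where 2.09% of all genes passed them, and the adjusted threshold by 0 members and 0 genes (0%, 688 genes at an unadjusted p under 0.05 in edgeR, 13 adjusted calls and 0 members in DESeq2, 0 calls in limma). The median was 0.036 without S9 and 0.011 without the libraries with raised atrial transcripts, so its sign was not fixed. The value of 0.011 came from the male WT/TKO libraries alone (2 WT, 2 KO), because S8 was the single male S library left. Adipocyte markers were called lower in KO in 4 of 4 tested (median -4.01), with a summed level of 0.420 to 794.6 FPKM in male WT (median 7.37) and 0.0668 to 21.7 in male KO (median 9.98). Mesothelial markers were below 0 in 5 of 5 (median -0.86, 0 called), 1 of 8 immediate early genes was called lower and 4 of 4 Y-linked genes higher. The part of these markers in the male differences, that of Srsf3 included, was not tested. Averaged over both sexes in the fit of all libraries, the 10 members lay between -0.031 (Srsf2) and -0.43 (Srsf3), with a median of -0.23 beside -0.0046 for all genes. Here 0 members and 2.40% of genes passed the study's thresholds, and 0 members and 2 genes (0.0132%, 1011 at an unadjusted p under 0.05) the adjusted one in edgeR, while DESeq2 called 1 member and 34 genes and limma 0 members and 1 gene. Without S1, 2 members and 63 genes passed the adjusted threshold. This average shares its libraries with the fits by sex. Past the study's thresholds in it were 3 of 5 atrial (median 2.72) and 4 of 4 Y-linked genes (median 5.47), all higher in KO. Of 3 measured lymphocyte genes, 1 was called lower. The part of these markers in the averaged differences was not tested.

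The male KO-WT difference minus the female one was fitted over all 20 libraries with series in the fit. It is made of the same genotype differences that were known when the genes were chosen, and it contrasts labels that the sex-linked genes of 6 libraries go against, so for the members it is a description too. The term was positive in 9 of 10 members, with a median of 0.25 beside -0.0040 over 15187 genes. It was 0.95 for Srsf11 (standard error 0.29) and 0.60 for Srsf6 (0.207). These 2 members passed the study's thresholds, beside 6.79% of all genes called in this direction, and 0 members and 0 genes passed the adjusted threshold in edgeR (0%, 2375 genes at an unadjusted p under 0.05, 20 adjusted calls and 0 members in DESeq2, 0 in limma). For Srsf3 the term was 0.12 (0.162). Among marker genes, 2 of 5 endothelial and 1 of 4 measured smooth muscle genes were called in the same direction as the members. Called in the opposite direction were 3 of 5 atrial, 4 of 4 measured adipocyte, 1 of 5 endothelial, 1 of 5 macrophage, 1 of 3 measured lymphocyte, 2 of 8 heat shock, 1 of 8 immediate early and 1 of 4 Y-linked genes. The part of these markers in the members' values was not tested. The count past the study's thresholds was 1 (Srsf11) without WT1, S8, S11, S3, S5 or S6 and 3 without S9, and without S1 2 members and 1127 genes passed the adjusted threshold. Without the libraries whose sex-linked genes go against the label, the call of Srsf11 and Srsf6 was lost and Srsf4 alone passed the study's thresholds.

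**Figure D2:**
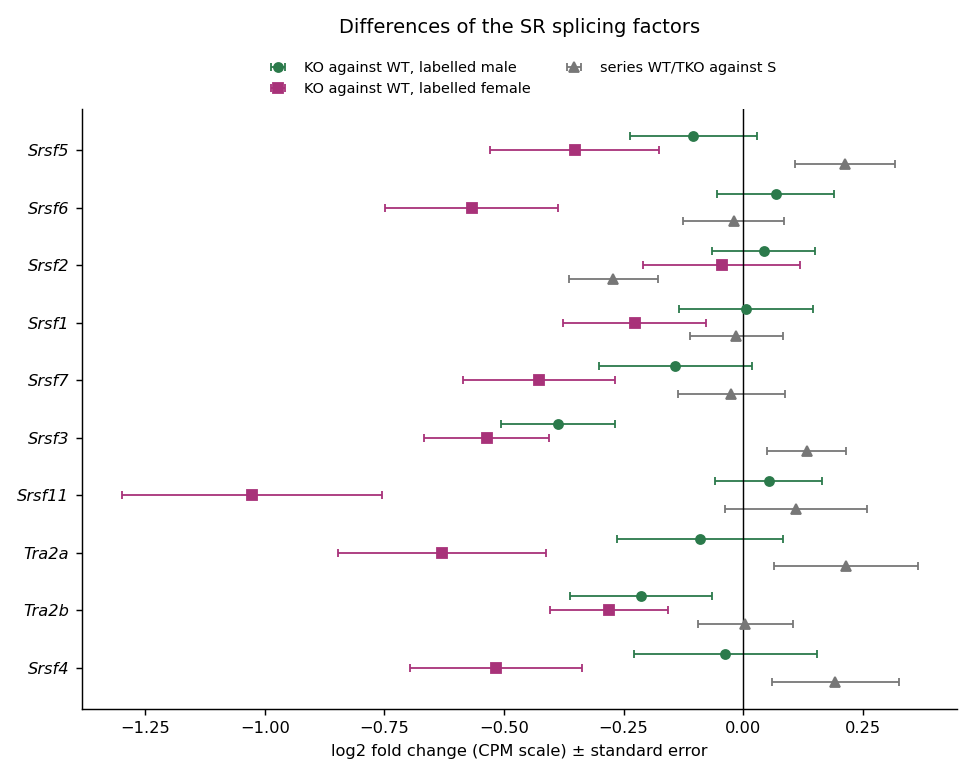
Log2 fold change (horizontal axis, CPM scale) with its standard error for each SR splicing factor in 3 comparisons: KO against WT in libraries labelled male (circles), the same in libraries labelled female (squares) and series WT/TKO against S (triangles). All 10 female values lie below 0, from -0.045 for Srsf2 to -1.03 for Srsf11, and Srsf3 has the lowest male value at -0.39.

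The difference of WT/TKO against S libraries, with labelled group in the fit, had a median of 0.058 and ran from -0.27 (Srsf2, standard error 0.0934) to 0.22 (Tra2a, 0.15). The study's thresholds were passed by 0 members, where 13.0% of all genes passed them, and the adjusted threshold by 0 members, where 14.7% of genes (2231) passed it. DESeq2, limma and the fit with upper-quartile normalization each called 1 member at an adjusted p under 0.05, as did the fit without S7, S12 or S1, and the median was -0.04 in limma on log2(FPKM + 0.1). The Srsf2 levels behind the lowest value were 20.3 to 31.8 FPKM in the 12 S libraries and 13.8 to 22.4 in the 8 WT/TKO libraries. Cell type markers differed between the series too, and their part in the members' values was not tested. Past the study's thresholds and lower in WT/TKO were 5 of 5 atrial (summed level 9.89 to 6844 FPKM in S, 7.11 to 18.2 in WT/TKO), 4 of 4 measured adipocyte (0.745 to 794.6 and 0.0668 to 1.67), 3 of 5 macrophage (74.0 to 144.8 and 57.8 to 79.5), 4 of 5 erythroid, 2 of 3 measured lymphocyte, 2 of 5 mesothelial, 1 of 5 endothelial and 4 of 8 heat shock genes. Nuclear-retained RNAs were called higher in 2 of 4.

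The members' shares of their summed FPKM varied between libraries, from 31.2% to 46.0% for Srsf5, 7.96% to 15.2% for Srsf2 and 0.987% to 1.93% for Srsf4. Srsf3 made up 7.75 ± 0.901% of the sum in the 8 WT libraries and 6.61 ± 0.705% in the 12 KO libraries, and Srsf5 37.2 ± 4.53% and 38.2 ± 4.16%. By labelled sex, the share of Srsf3 was 8.12 ± 0.441% in male WT (n = 5) and 6.525 ± 0.724% in male KO (n = 5). It was 7.14 ± 1.24% in female WT (n = 3) and 6.67 ± 0.743% in female KO (n = 7). The female medians were 6.43% and 6.44%, so the pooled difference lay mainly in the male libraries. Srsf11 ranged from 4.51% to 9.51%, with 9.51% in S2 and 8.92% in S3. Srsf2 made up 11.8 ± 2.13% in S libraries (n = 12) and 9.58 ± 0.735% in WT/TKO libraries (n = 8).

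The members did not vary as 1 block. Over the 20 libraries the Pearson correlation of log2 CPM between pairs of members had a median of 0.311 (45 pairs, from -0.344 to 0.878, 38 above 0), beside -0.001 over all pairs of the 15187 genes tested. After labelled group and series were removed the median was 0.197. It was 0.365 within the 12 S libraries and 0.285 within the 8 WT/TKO libraries. The points share library depth and total composition, and co-variation was among the reasons for choosing the genes, so no p is given.

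Srsf6 and Srsf11 were the closest pair of members (r = 0.878, 0.925 in S and 0.539 in WT/TKO libraries). Srsf1 and Srsf7 were next (r = 0.784, 0.773 in S and 0.785 in WT/TKO), and Tra2a correlated with both Srsf7 (0.742) and Srsf1 (0.711). Srsf4 went with Srsf5 and Srsf11 but against Srsf1 (-0.344) and Srsf7 (-0.252). Srsf2 went with Srsf1 (0.663) but against Srsf5 (-0.337). Tra2a had the highest median correlation with the other members (0.548), and Srsf4 (0.095) and Srsf2 (0.112) the lowest.

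The kinases of the CLK family phosphorylate SR proteins in the nucleus, and their own transcripts are known to be held in the nucleus with introns. Of these, Clk1, Clk2 and Clk4 lay close to the first pair. Clk3 correlated with the mean standardised log2 CPM of all members at 0.389, below Clk1 (0.75), Clk2 (0.74) and Clk4 (0.692). Srsf11 correlated with Clk4 at 0.919 and with Clk1 at 0.886, and within the S libraries at 0.973 and 0.988, but within the WT/TKO libraries at 0.224 and 0.624. Clk1 had 12.4, 29.5 and 34.3 FPKM in S1, S2 and S3, and the lowest library was S6 with 9.48. S2 and S3 were thus the highest libraries for both Srsf11 and Clk1, and S6 the lowest for both. Srsf10 went with them (r = 0.85 with Srsf11, 0.919 in S and 0.268 in WT/TKO libraries). It had 14.1 and 13.3 FPKM in S2 and S3 against 7.26 to 11.3 in the other libraries. Srsf6 and Clk2 correlated at 0.831, in both series (0.85 and 0.859).

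**Figure D3:**
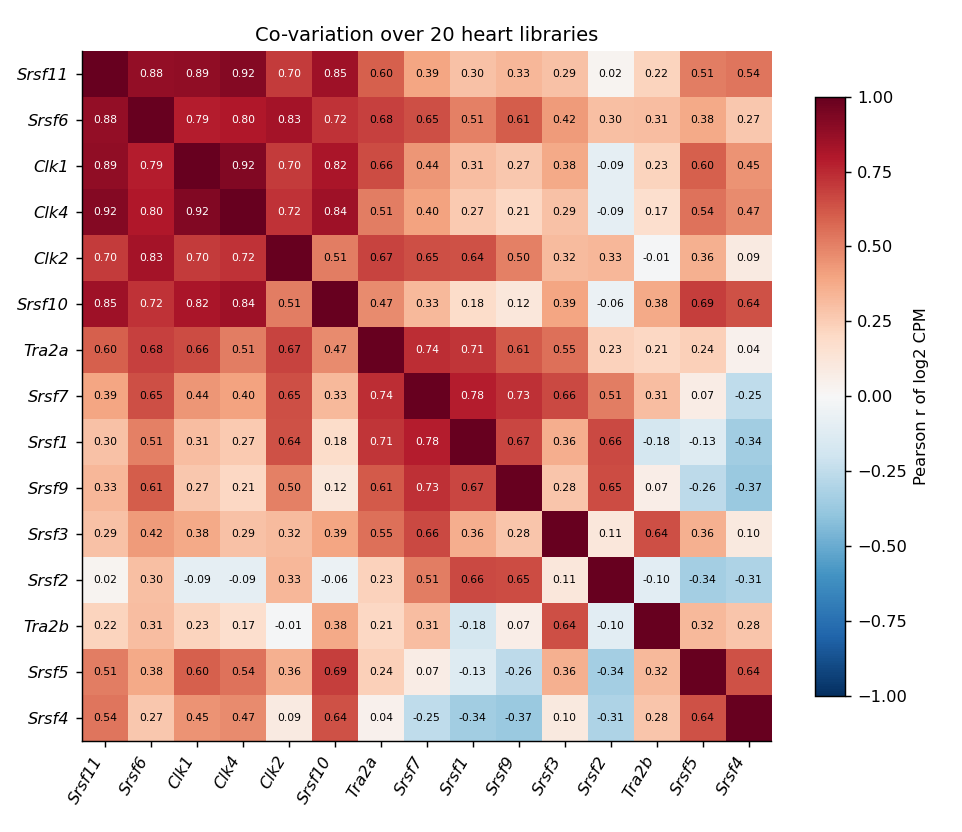
Pearson correlation of log2 CPM over 20 libraries between SR splicing factors, the relatives Srsf9 and Srsf10 and the kinase genes Clk1, Clk2 and Clk4, from blue (negative) to red (positive). Srsf11, Srsf6, Clk1, Clk4 and Srsf10 form a block with values of 0.725 or more, and Srsf1, Srsf7, Tra2a and Srsf9 another of up to 0.784.

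The level of the members together was summarised as the mean of their standardised log2 CPM, a score with 0 as the mean of all libraries. It was highest in S3 (1.353), S9 (0.974) and S2 (0.782) and lowest in TKO2 (-1.054), S6 (-0.972) and S5 (-0.942). The 3 highest libraries were all labelled WT and the 3 lowest all labelled KO, and the rest lay between -0.49 and 0.447. Mitochondrial transcripts took 30.4% and 25.6% of the counts in S2 and S3, beside 15.3% to 25.7% in the other libraries, and correlated with the score at 0.316 (rho = 0.247, n = 20). Total count correlated with it at -0.049. The part of library composition in the score was not tested.

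Genes of NMD and the exon junction complex, which remove the unproductive SR transcripts, had a score that correlated with that of the members at 0.878 (Spearman 0.859, n = 20, 15 genes). It was 0.921 within the S libraries, 0.766 within the WT/TKO libraries and 0.829 without S6 and S5. The corresponding value was 0.749 for 24 SR-related proteins, 0.576 for 9 SR kinases and import factors (0.218 without S6 and S3), 0.553 for 28 core spliceosome genes, 0.26 for 25 hnRNP proteins, the usual antagonists of SR proteins, and -0.362 for 12 heart splicing regulators. For the measured relatives Srsf9 and Srsf10 it was 0.856. Within the WT/TKO libraries, the relatives (0.924), core spliceosome genes (0.845) and SR kinases and import factors (0.799) lay above the NMD genes. SR-related proteins (0.659), hnRNP proteins (0.569) and heart splicing regulators (-0.692) lay below them there. Endothelial markers correlated at 0.451, cardiomyocyte markers at -0.293 and macrophage markers at -0.074.

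**Figure D4:**
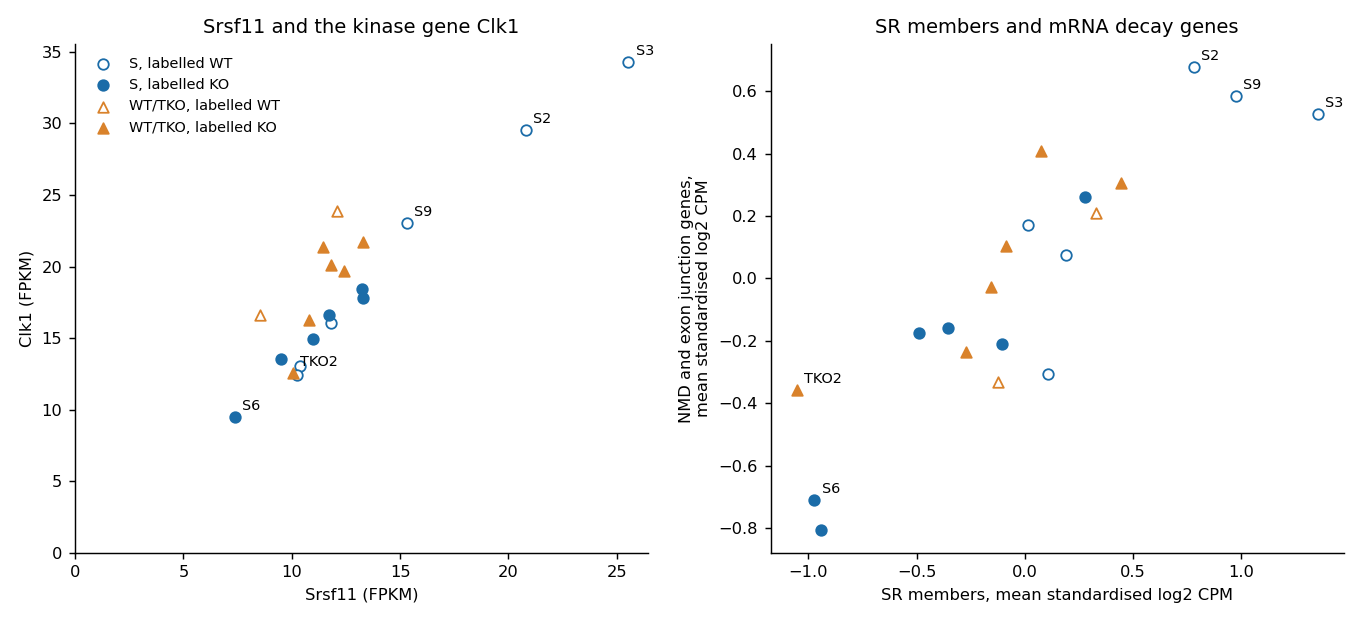
Left, Srsf11 against Clk1 in FPKM with 1 point per library. Right, the score of the SR splicing factors against that of 15 NMD and exon junction genes, both as mean standardised log2 CPM. Open symbols are labelled WT and filled symbols KO, circles S series and triangles WT/TKO series; S2 and S3 lie at the upper right in both panels and S6 at the lower left.

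By gene, the share of list members that correlated above 0.5 with the score was 55.6% for SR kinases and import factors (5 of 9), 50% for SR-related proteins (12 of 24), 40% for NMD and exon junction genes (6 of 15), 24% for hnRNP proteins (6 of 25), 21.4% for core spliceosome genes (6 of 28) and 0 of 12 for heart splicing regulators, beside 9.22% of 15177 genes that are no members. The genes most like the score over 20 libraries were Col11a2 (r = 0.903), a minor collagen chain with a mean of 3.57 CPM, Morc2a (0.896), Ewsr1 (0.881), an RNA-binding protein of the FET family, Usp36 (0.872), Edc4 (0.85), a scaffold of mRNA decapping, Akap8 (0.848), Gm45276 (0.848) and Mier3 (0.847). The least like were Prep (-0.877), a prolyl peptidase, Anxa4 (-0.868), an annexin, Dnajc24 (-0.848), Epdr1 (-0.843) and BC029722 (-0.842). Gm45276 was scarcely expressed, with a mean of 0.667 CPM and 0.173 to 1.31 FPKM. Ewsr1 ran from 17.5 FPKM in WT1 to 33.4 in S3, and Prep from 2.55 in S2 to 4.79 in S6.

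Among the genes around the SR proteins, called genes were again found in the female fit, all lower and none at an adjusted p under 0.05. They were 2 of 9 SR kinases and import factors, 6 of 24 SR-related proteins, 2 of 25 hnRNP proteins, 2 of 28 core spliceosome genes, 2 of 15 NMD and exon junction genes, Srsf10 of 2 measured relatives, and 0 of 12 heart splicing regulators, beside the 7.15% of all genes given above. Clk1 had a difference of -0.99 (standard error 0.324) and Clk4 of -0.97 (0.283). Srsf10 had -0.60 (0.173).

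The SR-related genes with the largest differences were Luc7l (-0.94, standard error 0.246) and Luc7l2 (-0.86, 0.238), which belong to the U1 snRNP, and Srek1 (-0.94, 0.271), a regulator that binds SR proteins. Ptbp2, the neuronal paralog of the polypyrimidine tract protein, had -1.16 (0.313) and Hnrnpl -0.59 (0.152). Snrnp70, the U1-70K protein, had -0.61 (0.198), Sf3b1, of the U2 snRNP, -0.59 (0.19), Smg9 -0.64 (0.199) and Upf3b -0.60 (0.198). Their adjusted p-values lay between 0.144 and 0.189 in edgeR. Luc7l had 7.76 to 18.5 FPKM in the 3 female WT libraries and 5.71 to 8.25 in the 7 KO libraries, so the lowest WT library overlapped with KO there too.

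The male fit called 0 genes of these 7 lists. The labelled-sex term passed the study's thresholds in 7 of 24 SR-related proteins, 2 of 9 SR kinases and import factors, 2 of 25 hnRNP proteins, 2 of 15 NMD and exon junction genes, 1 of 28 core spliceosome genes, Srsf10 of 2 measured relatives and 0 of 12 heart splicing regulators. All had the male difference above the female one, as did the 6.79% of all genes given above, and 0 passed an adjusted p under 0.05. Clk4 had 1.03 (standard error 0.289, adjusted p = 0.223) and Clk1 0.90 (0.344, adjusted p = 0.248).

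Between library series, the adjusted threshold in edgeR was passed by 3 of 24 SR-related proteins, 1 of 9 SR kinases and import factors, 1 of 25 hnRNP proteins, 4 of 28 core spliceosome genes, 4 of 12 heart splicing regulators and 1 of 15 NMD and exon junction genes, beside 14.7% of all genes. Nktr (0.65, standard error 0.148, adjusted p = 0.0066), Bclaf1 (0.44, 0.101, 0.00707) and Thrap3 (0.30, 0.0844, 0.021) of the SR-related proteins were higher in WT/TKO libraries. Srpk3, the muscle SR kinase, was higher by 0.51 (0.136, adjusted p = 0.0164), Smg1 by 0.45 (0.107, 0.00853), Rbm24 by 0.45 (0.105, 0.00832) and Mbnl2 by 0.40 (0.093, 0.0077). Sf3b4 (-0.50, 0.105, 0.00416), Sf3a3 (-0.30, 0.0895, 0.0304), Sf3a2 (-0.28, 0.0844, 0.03) and the heart splicing regulator Rbpms (-0.50, 0.0719, 0.000298) were lower. Hnrnph3 was higher by 0.24 (0.0687, 0.0252).

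Of 5 heart transcripts whose splicing SR proteins are known to control or whose proteins handle calcium, 0 passed either threshold between KO and WT. In the male fit the differences were 0.10 (standard error 0.125) for Camk2d, 0.018 (0.144) for Ldb3, -0.016 (0.127) for Tnnt2, -0.22 (0.163) for Ryr2 and 0.088 (0.136) for Trdn. In the female fit they were 0.22 (0.116), 0.14 (0.161), 0.046 (0.148), -0.12 (0.17) and 0.091 (0.126) in the same order. Ryr2, the cardiac calcium release channel, was higher by 0.40 in WT/TKO than in S libraries (0.114, adjusted p = 0.0226 in edgeR). Gene-level counts give the amount of these transcripts and not their exon usage.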

How the data were processed

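Poly-A mRNA of hearts was sequenced in paired ends. Per the labels and the submitters' processing notes, HISAT2, HTSeq 0.6.1p2 and DESeq2 1.26.0 were named with GRCm38. The annotation and the strand setting are not given in the sources used here. The authors deposited whole-number read counts per gene, without normalization, and FPKM computed from these counts, the library total and 1 exon length per gene, which for the members equalled the GENCODE M21 exon union. Each library was placed in its group from its labels.

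Counts were fitted with edgeR 4.0.16 (TMM, quasi-likelihood test, at least 10 counts in at least 3 libraries), by labelled sex with library series as covariate, and over all 20 libraries for the series and labelled-sex terms. Calls used the study's thresholds, p below 0.05 before adjustment with a log2 difference of 0.58 or more in either direction, or a Benjamini-Hochberg adjusted p under 0.05 over all genes. Correlations used log2 CPM (prior count 2). The fits were tested on simulated data. Alternatives were DESeq2 1.42.0, other filters, no series covariate, S libraries alone, upper-quartile normalization, limma 3.58.1 on log2(FPKM + 1) or log2(FPKM + 0.1), and each library left out.

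The members and gene lists were chosen with earlier results of these data known. Named genes are the members, Srsf9, Srsf10 and Srsf12, up to 3 called genes per list and comparison with the largest differences, and the 8 most and 5 least like genes. Cell type genes, Tecrl, Clk2, Clk3, the heart transcripts of SR control and the genes that overlap a member were named beyond that rule. Differentially called genes by the authors and the paper's other assays were not used here.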

Additional observations from a re-analysis of the deposited data

Results flagged for a closer look

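Of 30 combinations of a member and a group of 4 to 10 libraries, 3 held a library far from the rest, where chance alone sets about 1 in 20 apart. Srsf1 was lowest in the female KO library TKO2 (71.9 CPM). Srsf5 was lowest in the female KO library S6 (207 CPM). Srsf6 was highest in the male KO library S11 (164 CPM). Each was set apart by its gap to the nearest library of its group relative to the whole range.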

How the results depend on the processing

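No paired analysis was possible because the labels give the compared groups no shared replicate numbers. The count of members past the study's thresholds in the female comparison was 2, and 1 with no series covariate and in limma on log2(FPKM + 1); it was 3 with at least 10 counts required in every library (Srsf6, Srsf11 and Tra2a) and ran from 1 to 4 when each library was left out. For the labelled-sex term the count was 2, and 1 in limma on log2(FPKM + 1), in limma on log2(FPKM + 0.1) and, chosen after seeing the data, without the libraries whose sex-linked genes go against their label; it was 3 without the libraries with raised atrial transcripts (Srsf4, Srsf6 and Srsf11), likewise added later, and ran from 1 to 3 when each library was left out. The male, series and all-library counts past the study's thresholds were 0 under every alternative run. Without the filter on low counts, the adjusted threshold in edgeR was passed by 3 members and 1110 genes in the female comparison, by 1 member and 57 genes over all libraries, by 0 members and 59 genes in the male comparison and by 0 members and 129 genes for the labelled-sex term. The median pairwise correlation of 0.311 was 0.437 on log2(FPKM + 1), 0.438 with CPM by total count, 0.197 for residuals after labelled group and series, and 0.436 without the libraries with raised atrial transcripts, also chosen after seeing the data.

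The female median of -0.47 ran from -0.50 to -0.35 when each library was left out and was -0.33 with no series covariate. Without the libraries against their labelled sex, the female comparison could not be fitted, because series and genotype then coincide. Of 390 values of single members under an alternative, 4 moved by more than 1 SD, all for Srsf4 (0.36 and 0.35) and Srsf5 (0.16 and 0.15) in the male comparison without the libraries with raised atrial transcripts or against their labelled sex. Both of these alternatives left the genotype difference to the same male WT/TKO libraries (2 WT, 2 KO), so they are not separate checks. With 3 female WT libraries, of which S1 stood apart from S2 and S3, the size of the female differences is uncertain. The causes of these shifts were not tested.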
